A study of Homo sapiens with 40 samples.

Results

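The regions described here are the 25-kb windows (bins) that were most covered by H3K27me3 peaks in KMS-11 cells with abundant NSD2. A bin was taken when, on average over the 8 libraries of the untagged parental line of the degron experiment, at least 20% of it lay inside merged peaks. Chromosomes 1, 4, 18, 19 and X were left out by that rule. It gave 2466 bins (61.7 Mb), which is 3.95% of the 62400 bins with a peak in any library on the 18 chromosomes used, and 82215 bins had a peak on chromosomes 1 to 22 and X. They are called domain bins below. Because the bins were chosen by the peak coverage measured in those 8 libraries, their values are given as a description and were not tested, and all tests use other libraries.

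H3K27me3 was mapped by CUT&Tag, an assay in which an antibody brings a transposase to the modified nucleosomes, in KMS-11, a plasma cell myeloma line with the t(4;14) translocation and high NSD2. There were 30 libraries in 15 groups of 2. The knockout experiment had unedited KMS-11 (KO parental) and NSD2 KO clones 3 and 12, each 1 clone. The degron experiment had its own untagged line (dTAG parental) and NSD2-dTAG knock-in clones 8 and 11, each 1 clone, at days 0, 7, 14 and 21. The compound dTAGV-1 recruits a ubiquitin ligase to the tagged NSD2 so that it is degraded. The labels list this treatment for days 7, 14 and 21 of the untagged line too. Its dose was 100 nM for the tagged cells, and a dose for the untagged line is not given in the sources used here. All groups share the translocation. Replicates of edited clones are described as biological by the submitters, and nothing says that the parental libraries came from separate cultures, so the p-values reflect only how much libraries of a group differ, which can be technical. Peak lists do not show NSD2 protein, so loss of NSD2 was not checked.

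H3K27me3 is written by EZH2 within Polycomb repressive complex 2 and is found over silent genes, often in domains of many kilobases around CpG-rich promoters of developmental regulators. NSD2 writes H3K36me2, a modification found in gene bodies and between genes, and nucleosomes that carry H3K36 methylation are poor substrates for the Polycomb enzyme. In t(4;14) myeloma the translocation places NSD2 under immunoglobulin enhancers.

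Promoter sequences of 4 genes in domain bins show how different the DNA under these bins can be. They are the 250 bases before the RefSeq transcription start (GRCh38.p14), 5′ to 3′ on the gene's strand, with each CG dinucleotide in capitals. They were chosen after their values were seen: ZNF862 lies in the most covered run of bins, LRP1 in the bin called gained in both experiments, and GPR179 and LRRC26 are promoters whose peak calls differed between day 0 and day 21. ZNF862 is at chr7:149838125-149838374 (plus strand), LRP1 at chr12:57128233-57128482 (plus strand), GPR179 at chr17:38343957-38344206 (minus strand) and LRRC26 at chr9:137170052-137170301 (minus strand).
ZNF862: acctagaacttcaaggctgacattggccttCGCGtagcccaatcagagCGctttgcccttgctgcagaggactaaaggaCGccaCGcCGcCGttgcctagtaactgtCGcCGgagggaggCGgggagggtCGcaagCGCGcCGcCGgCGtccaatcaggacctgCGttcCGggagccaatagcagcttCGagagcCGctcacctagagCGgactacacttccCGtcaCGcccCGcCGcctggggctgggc
LRP1: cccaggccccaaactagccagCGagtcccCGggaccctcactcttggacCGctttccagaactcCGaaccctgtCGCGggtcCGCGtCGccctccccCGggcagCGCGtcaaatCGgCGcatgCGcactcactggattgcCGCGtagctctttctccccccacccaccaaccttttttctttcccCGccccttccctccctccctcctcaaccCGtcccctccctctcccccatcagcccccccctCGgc
GPR179: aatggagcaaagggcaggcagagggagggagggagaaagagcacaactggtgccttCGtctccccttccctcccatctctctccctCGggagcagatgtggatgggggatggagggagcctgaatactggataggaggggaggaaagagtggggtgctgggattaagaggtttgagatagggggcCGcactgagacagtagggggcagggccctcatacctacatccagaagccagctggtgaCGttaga
LRRC26: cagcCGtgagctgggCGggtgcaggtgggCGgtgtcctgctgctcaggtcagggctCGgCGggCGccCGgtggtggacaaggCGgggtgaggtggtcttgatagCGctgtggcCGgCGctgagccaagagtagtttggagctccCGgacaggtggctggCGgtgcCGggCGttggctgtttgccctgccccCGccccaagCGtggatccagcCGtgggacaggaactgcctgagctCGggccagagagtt
The motif CG reads the same on both strands, and it occurred at least once in 96.9% of the 15813 protein-coding promoters of the same length, with a median of 17. The promoter of ZNF862, a zinc finger gene, holds 25 CG, that of LRP1, an endocytic receptor of the LDL receptor family, 20, and that of LRRC26, an auxiliary subunit of BK potassium channels, 19. The promoter of GPR179, an orphan receptor of retinal bipolar cells, holds 4. The ZNF862 and LRP1 sequences overlapped a peak in 30 of 30 libraries. The GPR179 sequence overlapped a peak in 0 of 4 clone libraries at day 0, 4 of 4 at day 7, 3 of 4 at day 14 and 4 of 4 at day 21, and in 1 of 2 KO parental, 4 of 4 KO and 5 of 8 dTAG parental libraries. The LRRC26 sequence went the other way, with a peak in 4 of 4 libraries at day 0, 3 of 4 at day 7 and 0 of 4 at days 14 and 21. For LRRC26 the KO experiment differed, with a peak in 2 of 2 KO parental and 3 of 4 KO libraries, and in 7 of 8 dTAG parental ones. These overlaps are descriptions of single promoters.

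The domain bins formed 1053 runs of adjacent bins, of which 608 were single bins and 250 had at least 3. Runs of 3 or more held 59.5% of the bins, and the longest spanned 875 kb. Median coverage in the dTAG parental libraries was 26.9% and the highest was 60.7%. Of the bins, 1605 were covered by 20% to under 30%, 680 by 30% to under 40% and 181 by 40% or more. They were most frequent on chromosomes 22 (15.4% of its bins with a peak), 17 (12.9%) and 20 (10.0%) and least frequent on chromosome 3 (1.17%). The bins nearest the threshold were hardly different from their neighbours outside it. Those just inside had parental means of 20.01% to 20.02% (a bin without a coding gene, BRD3 and SHISAL1) and those just outside had 19.99% (RAP1GAP2, a bin without a coding gene, and HDAC10 with MAPK12, MAPK11 and PLXNB2).

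The name Polycomb domain was checked against gene content and peak values. The bins held 51.3% of the HOX cluster genes, which are classical Polycomb targets, against 11.5% of all protein-coding genes on these chromosomes. These 20 HOX genes lay in only 11 bins, so they are not separate cases. Of 228 developmental transcription factors, 26.8% overlapped a domain bin. They did not stand out by enrichment per peak base, which was lower than elsewhere in every library, and their promoters were not CpG-richer than others. Genes of the plasma cell identity of KMS-11 were little covered, with medians over the 30 libraries of 0% to 8.75% of the gene for PRDM1, XBP1, IRF4, SDC1, TNFRSF17 and MZB1. The highest value of any of these 6 genes in any library was 35.4%. None of the 12 plasma cell genes on the chromosomes used overlapped a domain bin. Of B cell markers, PAX5 had a median of 11.9% and MS4A1 of 0%, and the medians of all 5 ran from 0% to 36.7%. Of the 4 T cell markers, CD3D had the highest median (22.0%) and CD3E the lowest (0.856%). ACTB, a housekeeping gene, overlapped a domain bin, 1 of 17 on its list.

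Coverage of the domain bins overlapped between KO clones and their parental line, while coverage of the other bins was higher in the KO clones. In the KO experiment mean coverage of the 2466 bins was 34.9% and 23.6% in the KO parental libraries, 31.5% and 26.0% in clone 3, and 30.6% and 25.7% in clone 12. The KO libraries all lay between the 2 parental ones. The means were 29.2% ± 8.05 (SD, n = 2) and 28.4% ± 3.02 (SD, n = 4), a difference of -0.794 percentage points. Over the other bins of the same chromosomes mean coverage was 2.12% ± 0.618 and 5.36% ± 1.48, a ratio of 2.53. In peak lists from bulk cells, fewer cells with the mark and less mark per cell cannot be told apart.

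In the dTAG clones coverage also overlapped between times. Clone 8 had 32.5% and 18.0% at day 0 and 32.7% and 26.5% at day 21, and clone 11 had 24.2% and 22.4% at day 0 and 29.8% and 18.6% at day 21. The day 21 libraries overlapped those of day 0. Means were 24.3% ± 6.06 at day 0, 28.1% ± 1.27 at day 7, 25.1% ± 4.67 at day 14 and 26.9% ± 6.07 at day 21 (SD, n = 4 each). Elsewhere on these chromosomes the means were 1.46% at day 0 and 4.43%, 4.61% and 4.92% at days 7, 14 and 21, ratios of 3.04, 3.16 and 3.38. The 3 later times share the day 0 libraries. In the dTAG parental line, which chose the bins, coverage was 25.7% at day 0, 26.3% at day 7, 30.2% at day 14 and 31.8% at day 21, with 1.425 times the day 0 coverage elsewhere at day 21.

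The part of a library's called length that lay in domain bins separated KO and treated clones from their controls without overlap. It was 36.0% and 36.6% in the KO parental libraries, 15.4% and 15.6% in clone 3 and 20.5% and 22.5% in clone 12. In the dTAG clones it was 39.5% to 42.7% at day 0 (4 libraries), 19.1% to 23.3% at day 7, 16.4% to 20.8% at day 14 and 17.5% to 19.6% at day 21. The 8 dTAG parental libraries had 33.2% to 40.6%. Thus the 16 libraries of KO or treated clones ranged from 15.4% to 23.3%. The 6 KO parental and clone day 0 libraries ranged from 36.0% to 42.7%. The dTAG parental libraries chose the bins, so a high share in them follows in part from the rule. The share is a ratio of sums, and its parts moved unequally: KO parental libraries had 18.0 Mb of called length in domain bins and 31.7 Mb elsewhere on these chromosomes, KO libraries 17.5 and 80.3 Mb, day 0 libraries 15.0 and 21.8 Mb and day 21 libraries 16.6 and 73.7 Mb.

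**Figure D1:**
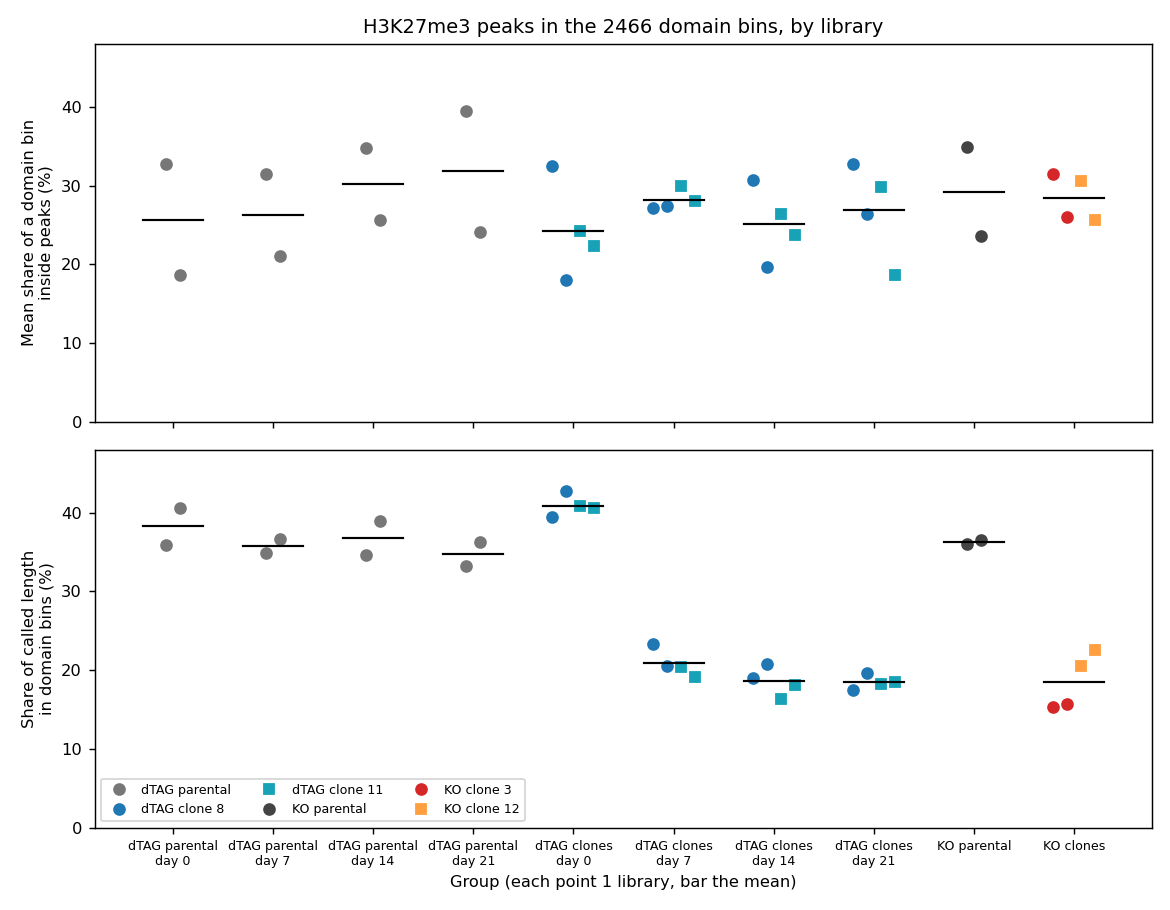
Mean share of a domain bin inside peaks (upper panel, percent) and share of called length that lies in the 2466 domain bins (lower panel, percent) for 30 libraries by group, with each point 1 library and the bar the group mean. Coverage overlaps between groups, whereas the share is 15.4% to 23.3% in the KO and treated clone libraries. It is 36.0% to 42.7% in KO parental and clone day 0 libraries and 33.2% to 40.6% in dTAG parental ones, which chose the bins.

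Depth was not listed, and an estimate from the peak values, the background pileup in fragments per position, ran from 0.922 to 3.26. It was 1.22 times higher in the KO clones than in their parental line and 1.53, 1.49 and 1.62 times higher at days 7, 14 and 21 than at day 0. In the dTAG parental line at day 21 it was 1.423 times that of day 0, with domain shares of 33.2% and 36.2%. Within a group the deeper library mostly had the higher coverage, and replicate 1 had the higher domain coverage in 14 of 15 groups. Libraries of like depth can be set side by side. KO parental replicate 1 (pileup 2.58) had 34.9% coverage, KO clone 3 replicate 2 (2.60) had 26.0% and KO clone 12 replicate 1 (2.46) had 30.6%. Clone 8 had 32.5% at day 0 (replicate 1, pileup 2.31) and 26.5% at day 21 (replicate 2, pileup 2.35). In these pairs, chosen after their values were seen, the KO or treated library had the lower domain coverage.

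Each bin was then tested with limma on its coverage, over 49812 bins, with Benjamini-Hochberg adjusted p under 0.05 as the call. All 2466 domain bins were tested. Bins had to reach a mean of 1% over the 30 libraries. A bin under 1% in the controls thus entered only if KO or treated libraries were higher, which raises the gained share over all tested bins. In the KO clones 2 domain bins were gained, against 37.3% of all tested bins, and 10 were lost, against 0.522%. As shares of the domain bins these are 0.0811% and 0.405%. At unadjusted p under 0.05, 10 were gained and 31 lost, together fewer than this cut-off passes when no bin differs. With the replicate number as a block in the fit, although no label says that the numbers pair libraries, 18 were gained and 54 lost, against 42.3% and 0.984% of all bins, so that 2.19% of the domain bins were lost. The median change of a domain bin was -0.865 percentage points and that of all tested bins 4.15. The domain bins were also measured less precisely, with a median standard error of 6.57 points against 2.36 for all bins, so a missing call does not show that a bin was the same. In simulated coverage limma recovered 16 of 100 bins that differed by 20 points and 85 of 100 that differed by 40. Only those bins of 52163 differed there, and noise was independent between libraries. With 37.3% of the real bins gained, the adjusted cut-off was less strict in the real fit, so the simulated recovery does not carry over to it. The gained count was 0 without KO parental replicate 2, 1 without KO clone 12 replicate 1 and 4 without KO clone 3 replicate 2. The lost count was 0 without KO parental replicate 1, and 6, 3 and 4 without KO clone 3 replicate 1, KO clone 3 replicate 2 and KO clone 12 replicate 2.

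More domain bins were called in the dTAG clones, and still far fewer than elsewhere. At day 7, 96 were gained and 2 lost, where 39.5% and 0.159% of all bins were. At day 14, 86 were gained and 14 lost, where 47.1% and 0.387% of all bins were. At day 21, 138 were gained and 8 lost, where 51.6% and 0.367% of all bins were, so that 5.60% of the domain bins were gained. Median changes of the domain bins were 3.48, 0.516 and 2.36 percentage points, beside 3.84, 4.11 and 4.57 over all bins. The median standard errors were 5.36 points in domain bins and 1.93 over all bins. With the replicate block the gained and lost counts were 328 and 10 at day 7 (45.7% and 0.285% of all bins), 188 and 68 at day 14 (52.1% and 0.791%) and 309 and 39 at day 21 (56.3% and 0.64%). At day 21, 1 bin was called gained in both experiments and 0 were called lost in both.

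Leaving out single libraries moved these counts. When clone 8's second day 0 library, the shallowest of all, was dropped, 19, 15 and 31 domain bins were gained at days 7, 14 and 21, and when its first was dropped the counts were 188, 132 and 217. For day 7, dropping the first or second day 7 library gave 59 or 35 gained bins for clone 8 and 49 or 52 for clone 11, and dropping clone 11's first or second day 0 library gave 49 or 30. For day 14, dropping the first day 14 library gave 17 for clone 8 and 36 for clone 11, and clone 11's first or second day 0 library gave 55 or 26. For day 21, dropping the first day 21 library gave 46 for clone 8 and 35 for clone 11, clone 11's second day 21 library gave 217, and its second day 0 library gave 60.

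The few losses were as sensitive. Dropping clone 8's first day 0 library left 0, 1 and 0 lost bins at days 7, 14 and 21, and dropping its second gave 38 and 24 at days 14 and 21. For day 7 the count was 0 when either day 7 library of clone 8 or the second day 0 or day 7 library of clone 11 was dropped, and 1 for the first day 0 or day 7 library of clone 11. For day 14 it was 2 when clone 8's second day 14 library or clone 11's first day 0 library was dropped, 7 for clone 11's second day 0 library, and 8 or 6 for its first or second day 14 library. For day 21 it was 4 when clone 8's second day 21 library was dropped, and 2 for either day 0 library or the second day 21 library of clone 11.

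The share of gained bins was lower the more of a bin was covered in the dTAG parental line. In the KO clones 61.2% of the bins under 1% were gained, 34.1% of those at 1% to under 5%, 18.3% at 5% to under 10%, 4.43% at 10% to under 20%, 0.125% at 20% to under 30% and 0% of the 680 bins at 30% to under 40% and the 181 bins above. Of the bins at 40% or more, 2 of 181 were lost. At day 21 the order was the same, from 70.5% under 1% through 50.2%, 44.3% and 30.0% to 7.73% at 20% to under 30%, 1.76% at 30% to under 40% and 1.10% at 40% or more. In the KO clones median changes went from 5.71 points under 1% through 3.66, 3.32 and 1.23 to -0.946 points at 40% or more. At day 21 they did not follow the gained share step by step. They were 5.15, 4.04, 5.14 and 5.22 points in the classes under 20%, and 2.47, 2.03 and 2.20 points above. At day 7 the gained share was 47.6% under 1% and 1.66% at 40% or more. The median changes of those classes were 3.64 and 4.01 points. The libraries compared did not set these classes, but they helped to choose which bins were tested. A bin entered with a mean of at least 1% over all 30 libraries, and 14909 of the 39280 bins under 1% did. The gained share and median change of that class therefore follow in part from the filter.

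**Figure D2:**
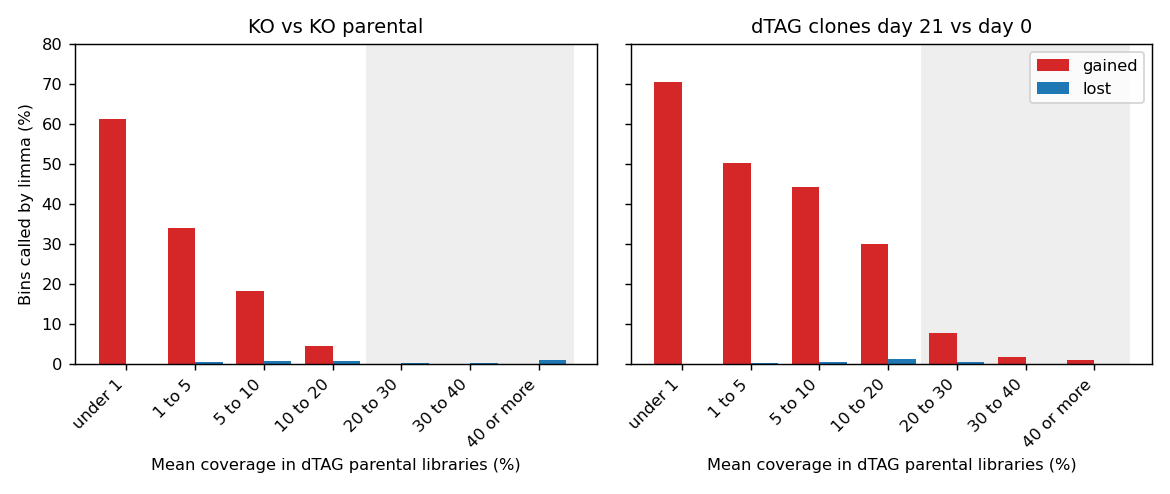
Percent of bins that limma called gained or lost (y axis) by mean coverage in the dTAG parental libraries (x axis, percent) for KO against KO parental and for the dTAG clones at day 21 against day 0; grey marks the domain bins. The gained share goes from 61.2% to 0% in the KO experiment and from 70.5% to 1.10% in the dTAG experiment. Bins under 1% were tested only with a mean of at least 1% over all 30 libraries, so their gained share follows in part from that filter.

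On a relative scale the same bins were lower. After the coverage of each library was scaled by its called length, 1805 domain bins were lost and 0 gained in the KO clones, where 12.8% and 26.6% of the 47279 bins tested on that scale were lost and gained. The lost and gained counts were 2015 and 0 at day 7 (16% and 32.2% of all bins), 2134 and 1 at day 14 (18.1% and 38.5%) and 2128 and 0 at day 21 (18.2% and 38.1%). By construction this scale lowers every bin of a longer list. With the lists ranked by -log10 q and shortened to the same called length, 173 of the 2460 domain bins tested were lost and 1 gained in the KO clones, where 2.58% and 3.35% of 25697 bins were. Those counts were 426 and 4 at day 7 (3.96% and 4.99%), 677 and 9 at day 14 (6.69% and 9.21%) and 653 and 8 at day 21 (6.48% and 8.8%). Lists of equal length are also relative, since peak bases kept elsewhere take the place of bases in domain bins. With pileup as a covariate 366 domain bins were lost and 3 gained in the KO clones (2.89% and 33.3% of all bins), 294 and 22 at day 7 (2.07% and 22%), 812 and 36 at day 14 (4.63% and 33%) and 778 and 30 at day 21 (4.59% and 32.5%). In the dTAG clones the balance of called domain bins therefore depends on the scale. Gained bins outnumber lost ones there without scaling, and lost ones outnumber gained ones under these 3 treatments. In the KO clones lost bins outnumber gained ones without scaling too, where 57.5% of the domain bins had a lower mean. That direction rests on few calls and on 1 library. Without KO parental replicate 1, mean domain coverage was 4.9 points higher in the KO clones than in their parental line. In lists of equal length the domain bins held 39.0% to 41.2% of the called length in KO parental libraries and 22.5% to 32.8% in KO libraries, and they held 42.1% to 44.7% at day 0 and 22.2% to 27.0% at day 21.

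Around the domains, coverage was lower farther out, and the ratio between KO or treated clones and their controls was higher farther out. In the KO parental libraries mean coverage was 29.2% in domain bins, 12.1% in the adjacent bin, 4.19% at 10 bins and 0.991% beyond 40 bins. In the KO clones it was 28.4%, 13.3%, 7.62% and 4.30%. The ratio of the 2 went from 0.973 in the domains to 1.10 in the adjacent bin, 1.82 at 10 bins, 2.37 at 20 bins and 4.34 beyond 40 bins. At day 21 the ratio to day 0 was 1.11, 1.52, 2.85, 3.58 and 5.01 at the same distances. In the dTAG parental line at day 21, with 1.423 times the day 0 pileup, the ratio was 1.24 in the domains, 1.35 in the adjacent bin and 1.49 beyond 40 bins. In percentage points the KO difference was -0.794 in the domains, 1.22 in the adjacent bin, 4.24 at 20 bins and 3.31 beyond 40 bins. These profiles are descriptions, with no test.

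**Figure D3:**
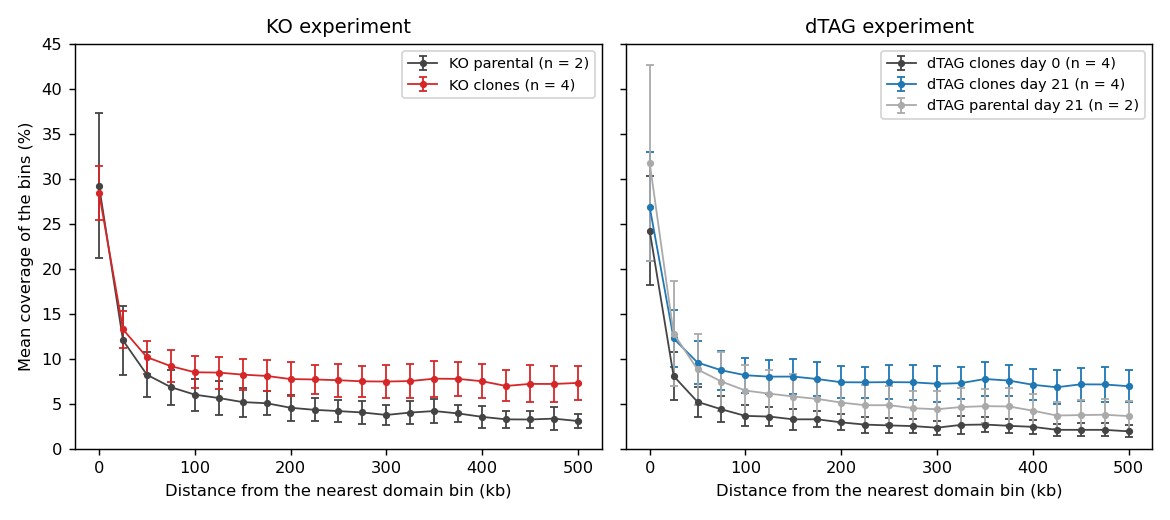
Mean coverage of bins (y axis, percent) by distance to the nearest domain bin (x axis, kb), with error bars for the SD over libraries, for the KO experiment (left) and the dTAG experiment (right). KO parental and KO meet in the domains (29.2% and 28.4%) and part with distance, to 3.08% and 7.32% at 20 bins.

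Peaks in the domains were broad and of low fold. The fold column of the lists is the enrichment of a peak over the caller's background, and fold and -log10 q are the authors' values for single peaks, used only to describe peaks within a list. For each library the median over peak bases was taken inside and outside the domain bins. The fold was lower inside in 30 of 30 libraries. It was 1.95 and 1.97 inside against 2.87 and 3.01 outside in the KO parental libraries, and 2.09 to 2.19 inside against 2.70 to 2.85 outside in the KO libraries. At day 0 it was 2.00 to 2.21 inside and 3.13 to 3.56 outside, and at day 21 2.12 to 2.25 inside and 2.70 to 2.90 outside. The ratio of inside to outside was 0.602 to 0.680 in the 6 KO parental and clone day 0 libraries. It was 0.734 to 0.812 in the 16 KO or treated libraries, with no overlap. In the 8 dTAG parental libraries, which chose the bins, the ratio was 0.636 to 0.691. Peaks at a fold of at least 4 covered only 0.103% to 0.527% of the domain bins in any library.

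The -log10 q was higher inside the domains in 25 of 30 libraries, and in 16 of 16 KO or treated ones. Inside medians were 5.13 and 2.82 in the KO parental libraries and 2.70 to 3.66 in the KO libraries, against 4.05 and 2.71, and 2.00 to 2.37, outside. At day 0 they were 2.73 to 5.29 inside and at day 21 2.13 to 3.90. Of the 1000 peaks with the highest -log10 q in a list, 30.4% and 28.7% touched a domain bin in the KO parental libraries and 12.4% to 19.0% in the KO libraries. The share was 30.9% to 33.4% at day 0, 13.5% to 14.1% at day 21 and 26.7% to 28.3% in the dTAG parental libraries. Peaks at -log10 q of at least 5 covered 11.0% ± 9.98 of the domain bins in KO parental libraries (18.1% and 3.94%) and 6.09% ± 2.70 in KO libraries (3.83% to 9.39%). At day 0 they covered 3.14% to 17.4% and at day 21 1.65% to 10.8%, so these ranges overlap. Peaks that touch a domain bin were wider than other peaks in 30 of 30 libraries, with medians of 1067 to 1403 bp in parental and day 0 libraries and 936 to 1186 bp in KO or treated ones.

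**Figure D4:**
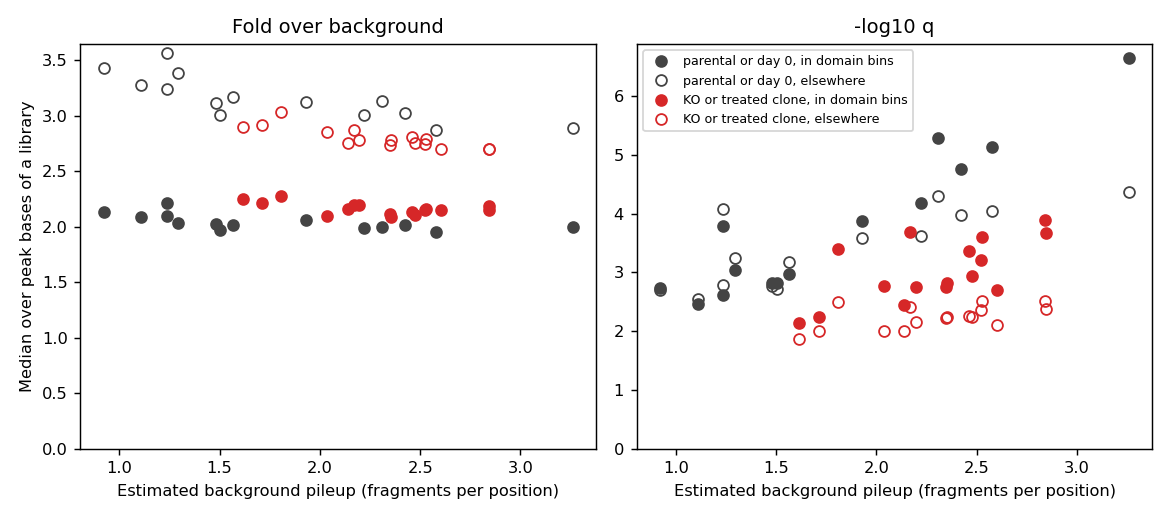
Median fold over background (left) and median -log10 q (right) over the peak bases of each library, in domain bins (filled) and elsewhere (open), against estimated background pileup (x axis, fragments per position); red marks KO or treated clones. Filled points lie below open ones for fold in all 30 libraries, and for -log10 q they lie above them in 25. The 30 include the 8 dTAG parental libraries, which chose the bins.

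A bin over LRP1 (chr12:57125001-57150000) was the 1 domain bin called gained in both the KO clones and the dTAG clones at day 21. It was 20.6% and 16.2% covered in the KO parental libraries, 50.4% and 43.4% in clone 3 and 38.5% and 33.7% in clone 12. The groups did not overlap, and the difference was 23.1 points (SE 5.71, limma adjusted p = 0.00445). In the dTAG clones it went from 22.0%, 8.55%, 12.7% and 8.37% at day 0 to 43.3%, 33.5%, 37.0% and 18.4% at day 21 (20.2 points, SE 4.66, limma adjusted p = 0.00168). There the lowest day 21 value was below the highest of day 0. Scaled by called length the differences were 4.05 and 2.29 points and were not called, and at -log10 q of at least 5 the KO difference was -3.52 points. The KO call was lost without KO parental replicate 2 (20.9 points). The second bin gained in the KO clones, chr17:50200001-50225000, had a mean of 19.0% in the KO parental line and 31.6% in the KO clones (12.6 points, limma adjusted p = 0.0444), and it did not meet the rule for named bins.

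The largest loss in the KO clones lay on chromosome 9 over GRIN1, a subunit required in every NMDA receptor, LRRC26, TMEM210 and ANAPC2, a subunit of the anaphase-promoting complex (chr9:137150001-137175000). Coverage was 63.4% and 42.1% in the KO parental libraries, 27.7% and 20.5% in clone 3 and 37.9% and 29.1% in clone 12. All KO values were below both parental ones (-24.0 points, SE 7.53, limma adjusted p = 0.0175). It was also lost in lists of equal length, and after scaling, where 73.2% of all domain bins were lost. Without KO parental replicate 1 the difference was -13.3 points and not called. At day 21 this bin was at 31.5%, 26.7%, 28.7% and 25.0%, all below the lowest day 0 value of 35.6% (-13.0 points, limma adjusted p = 0.0814).

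Next came 2 bins 75 kb apart on chromosome 17, the second of them over NOS2, the inducible nitric oxide synthase (chr17:27750001-27775000). NOS2 was 37.6% and 38.1% covered in the KO parental libraries, 19.5% and 27.3% in clone 3 and 21.1% and 11.3% in clone 12. The groups did not overlap (-18.1 points, SE 6.97, limma adjusted p = 0.0467), but the call was lost without any of KO parental replicates 1 and 2, KO clone 3 replicate 1 and KO clone 12 replicates 1 and 2. In lists of equal length the NOS2 difference was -0.542 points. SRRM3, a regulator of neuronal microexon splicing (chr7:76200001-76225000), had 53.9% and 40.5% in the KO parental libraries and 25.1% to 36.0% in the KO libraries (-15.9 points, SE 5.60, limma adjusted p = 0.0307), and -9.24 points with no call without KO parental replicate 1. The other named losses were bins over TSPAN9 and SEC14L3, and chr17:27650001-27675000 and chr10:101075001-101100000 without a coding gene, with differences of -18.4 to -14.1 points. On the scaled values all 7 losses named here were called, as were 73.2% of all domain bins, so this adds no support. Each of the 7 lost its call without at least 1 library.

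At day 21, 44 domain bins gained coverage in both clones and under scaling kept their direction, and the 8 largest, at most 1 per run, are named. FAIM2, an inhibitor of Fas-driven death of neurons (chr12:49875001-49900000), went from 20.6%, 4.20%, 13.4% and 3.57% at day 0 to 32.8%, 34.7%, 41.7% and 27.4% (23.7 points, SE 5.17, limma adjusted p = 0.00109). The groups did not overlap. In the KO experiment the FAIM2 bin was at 37.3% and 30.4% in the parental line and 31.3% to 36.7% in the KO clones, a difference of 0.114 points. AHRR, the repressor of the aryl hydrocarbon receptor (chr5:350001-375000), went from 5.75% to 13.6% at day 0 to 28.4% to 35.3% at day 21 (23.1 points, SE 4.69, limma adjusted p = 0.000639). GPR179 (chr17:38325001-38350000), whose CpG-poor promoter is shown above, went from 5.08% to 15.5% at day 0 to 25.9% to 33.7% at day 21 (21.1 points, SE 4.81, limma adjusted p = 0.00152). Neither bin's groups overlapped.

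The other named gains were bins over TTLL9, over SUPT4H1 with RNF43, a ubiquitin ligase that lowers Frizzled receptors, over LRP1, and chr2:20525001-20550000 and chr9:126525001-126550000 without a coding gene, with differences of 20.2 to 22.3 points. None of the 8 was called after scaling by called length. All were called with the pileup covariate, and in lists of equal length only the SUPT4H1 and RNF43 bin was (14.6 points, SE 3.13, limma adjusted p = 0.00514). In the KO clones these bins other than LRP1 differed by 0.114 to 15.2 points and were not called.

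Losses at day 21 were 8 bins, of which 7, at most 1 per run, are named. ZNF354C, a zinc finger gene (chr5:179050001-179075000), went from 40.2%, 9.10%, 21.0% and 20.7% at day 0 to 6.90%, 7.02%, 7.09% and 1.32% at day 21. All day 21 values were below those of day 0 (-17.2 points, SE 5.59, limma adjusted p = 0.015). Without clone 8 day 0 replicate 1 the difference was -9.40 points and not called. In the KO experiment ZNF354C was at 25.6% and 5.42% in the parental line and 1.70% to 11.4% in the KO clones (-9.78 points, limma adjusted p = 0.274). SDK1, a synaptic adhesion gene (chr7:4150001-4175000), went from 22.6% to 43.6% to 5.26% to 18.0% (-18.3 points, SE 7.05, limma adjusted p = 0.0353), with no call without 6 of the 8 libraries in turn.

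CHAT and SLC18A3, the enzyme and the vesicular transporter of acetylcholine, share a locus (chr10:49600001-49625000) that went from 22.8% to 30.5% at day 0 to 25.1%, 22.3%, 18.1% and 6.31% (-10.0 points, SE 4.13, limma adjusted p = 0.0477). There the groups overlapped, the call was lost without 7 of the 8 libraries in turn, and at a fold of at least 4 the difference was 1.44 points. The other losses were bins over C11orf21, EFCAB6 and C16orf96 with UBALD1 and MGRN1, and chr15:99425001-99450000 without a coding gene (-13.0 to -7.04 points). All 7 were also called lost in lists of equal length and with the pileup covariate, where 26.5% and 31.55% of domain bins were. After scaling they were called lost too, as were 86.3% of all domain bins, so that adds no support.

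**Figure D5:**
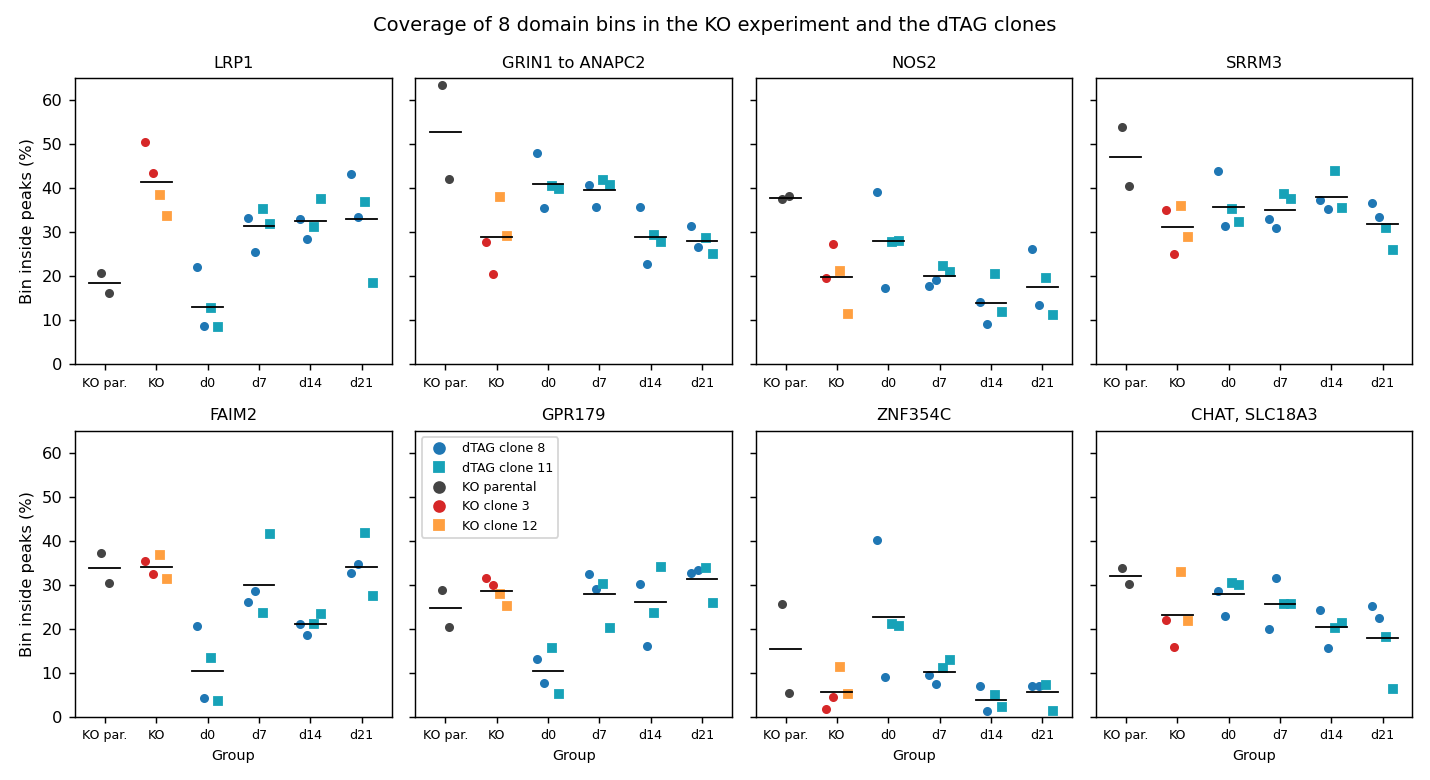
Percent of the bin inside peaks (y axis) in the KO parental, KO and dTAG clone libraries (x axis; points are libraries, bars group means) for 8 domain bins named by their genes. LRP1 is 16.2% to 20.6% in the KO parental libraries and 33.7% to 50.4% in the KO libraries, whereas ZNF354C is 9.10% to 40.2% at day 0 and 1.32% to 7.09% at day 21.

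In the KO experiment the means of the 10 most covered runs of at least 3 bins differed by a few points. First was a run of 75 kb over ZNF467 and ZNF862 (chr7:149775001-149850000), with 44.6% in the dTAG parental line, 40.5% in KO parental, 42.7% in KO, 40.3% at day 0 and 38.4% at day 21. Second was chr22:20150001-20300000 with RTN4R, the Nogo receptor, and CCDC188, at 41.9% in KO parental and 44.2% in KO, and at 40.2% at day 0 and 44.8% at day 21. CACNA1G, a T-type calcium channel, and ABCC3 shared the third (39.9% and 41.0%, and 36.5% and 41.8%). The longest of the 10 had 10 bins on chromosome 20 (chr20:62400001-62650000) with GATA5, a transcription factor of endoderm and heart, CABLES2, RBBP8NL and SLCO4A1, at 38.5% in KO parental, 42.0% in KO, 35.7% at day 0 and 41.2% at day 21.

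The other runs held METRNL and QTGAL, SLC9A3, a sodium-proton exchanger, with CEP72, SLC6A3, the dopamine transporter, SLC6A19 and SLC6A18, of which the first carries neutral amino acids, and DLGAP4, with 1 run without a coding gene. Of the 48 bins in the 10 runs, 0 were called in the KO clones (0 gained and 0 lost), and 2 were gained and 0 lost at day 21. Of all domain bins, 0.0811% were gained and 0.4055% lost in the KO clones, and 5.60% and 0.324% at day 21. Of all tested bins these shares were 37.3% and 0.522%, and 51.6% and 0.367%. The runs were not tested against these shares. After scaling by called length, 40 of the 48 were lost in the KO clones and 46 at day 21, where 73.2% and 86.3% of all domain bins and 12.8% and 18.2% of all bins were lost.

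Developmental regulators were the main gene group for which lists were drawn up. Of 228 developmental transcription factors in 9 lists, 61 (26.8%) overlapped a domain bin, beside 11.5% of all protein-coding genes on these chromosomes. The paired box (12.5%), forkhead (14.3%) and SOX (15.4%) lists were near that share and the zinc finger list (4.5%) below it. These were 20 of 39 HOX genes, 21 of 77 other homeobox factors, 7 of 31 bHLH factors, 3 of 4 GATA factors, 3 of 21 forkhead, 3 of 13 T-box, 2 of 13 SOX, 1 of 8 paired box and 1 of 22 zinc finger factors. HOXC12 was 59.8% covered in the dTAG parental libraries, 64.5% in KO parental, 60.6% in KO, 59.8% at day 0 and 61.9% at day 21. GATA2, a factor of blood stem cells, had 44.6% in KO parental and 41.5% in KO, and 50.7% at day 0 and 44.3% at day 21. TBX1 had 37.9% and 28.6%, and 33.0% and 33.5%. ASCL2 overlapped a domain bin without being covered itself, at 0% of the gene in KO parental and KO.

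Secreted ligands were also present, with 6 of 15 WNT genes (40%) and 6 of 30 BMP, GDF and FGF genes (20%), beside 11.5% of all protein-coding genes. WNT1 was 53.9% covered in KO parental and 50.7% in KO, and 49.3% at day 0 and 42.7% at day 21. None of 53 clustered protocadherins overlapped a domain bin. Of lymphocyte genes, CD7, a T cell surface receptor, was 100% covered in KO parental, KO, day 0 and day 21 alike, and CD79B, a subunit of the B cell receptor, had 62.9% in KO parental, 47.2% in KO, 31.3% at day 0 and 44.2% at day 21. In the KO clones limma called no domain bin of any of these lists gained or lost on unscaled coverage, where 37.3% and 0.522% of all bins were. After scaling by called length, 8 of 11 HOX bins and 20 of 25 other homeobox bins were lost in the KO clones, beside 73.2% of all domain bins. In lists of equal length 1 HOX, 1 T-box and 1 bHLH bin were lost there, beside 7.03% of all domain bins. At day 21 gains were called in 2 of 11 HOX bins, 3 of 25 other homeobox bins, 1 of 4 GATA bins, 1 of 10 bHLH bins and 1 of 9 WNT bins, and no bin of these lists was lost on unscaled coverage. Over all domain bins 5.60% were gained at day 21, and over all tested bins 51.6%, and the lists were not tested against these shares. Median changes at day 21 were 4.14 points for HOX bins and 1.66 for other homeobox bins, beside 2.36 for all domain bins, and after scaling they were -22.3 and -25.3 points.

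Most domain bins lay in genes. A protein-coding gene overlapped 71.9% of them and took up 50.8% of their length on average, against 45.8% in bins at 10% to under 20%, 51.2% at 1% to under 10% and 42.2% under 1%. A coding gene started in 25.7% of the domain bins, in 31.6% of the bins at 10% to under 20% and in 4.27% of those under 1%. The 823 promoters in domain bins had a median of 16 CG in 250 bases, against 18 for the 10455 others on these chromosomes. A CpG content of at least 0.6 of that expected from base composition was found in 54.9% of the first and 65.7% of the second. Of the promoters in domain bins, 65.9% ± 10.3 overlapped a peak in KO parental libraries (SD, n = 2) and 65.9% ± 5.08 in KO libraries (SD, n = 4), and 62.4% ± 7.84 at day 0 and 64.4% ± 8.90 at day 21 (SD, n = 4 each). Promoters elsewhere on these chromosomes overlapped a peak in 56.5% ± 6.38 of cases in KO parental and 64.7% ± 3.35 in KO libraries, and in 53.0% ± 7.07 at day 0 and 64.0% ± 3.74 at day 21. CpG-rich promoters in domain bins were at 72.5% in KO parental and 71.3% in KO libraries, and CpG-poor ones at 57.8% and 59.3%.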

How the data were processed

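H3K27me3 peak lists of 30 CUT&Tag libraries, made from 50000 nuclei and 13 PCR cycles per the labels' protocols, were used. Another 10 libraries (IgG, H3K27ac, H3K4me3) were not analysed here. The submitters' processing notes name, without roles, MACS3 3.0.2 (a peak caller), Bowtie2 (an aligner), the build hg38, fastp 0.24.0, and also Picard, SAMtools, ChIPseeker 1.42.1, DESeq2 and deepTools 3.5.1. The sources used here give neither calling options nor the control. The deposited broadPeak lists are per library. The authors' fold column is a ratio to the caller's background. The authors' -log10 p and -log10 q are per peak, the lowest -log10 q being 1.00 to 1.01. The deposited score was not used.

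Peaks of a library were merged and the percent of each 25-kb bin inside them computed. The lists held 34740 to 205920 peaks (36.1 to 168 Mb). Bins with a mean of 1% to 99% over the libraries entered limma 3.58.1 (R 4.3.3), with 15 group means, eBayes with a trend, 15 residual degrees of freedom and Benjamini-Hochberg adjustment over all tested bins. The contrast of clones with their control weights both clones equally. The spread is that between replicate libraries, so it does not measure that between clones. The script was tested on simulated data. Background pileup was solved from fold and p of the shortest peaks, which assumes a pseudocount of 1 and a genome-wide background. Gene positions and promoters are RefSeq (GRCh38.p14). Scripts ran in Python 3.11.15 with scipy 1.17.1, pandas 2.3.3, numpy 2.4.6 and matplotlib 3.10.9.

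Named were the 10 most covered runs of at least 3 bins, up to 8 gained and 8 lost domain bins per comparison (largest change, same direction in both clones and after scaling, 1 per run), the 3 bins on each side of the threshold, and list genes with the highest coverage. A bin lost in the KO clones and a marker gene that these rules select are not reported here. The members and gene lists were chosen with earlier results of these data known. Alternatives tried were stricter peaks, lists of equal length, scaling by called length, a pileup covariate, joined peaks, other groups in the fit, no filter, a replicate block, other thresholds and leaving out libraries.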

Additional observations from a re-analysis of the deposited data

Results flagged for a closer look

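Dixon's criterion was applied to 93 groups of 4 or 8 library values. The values came from named bins and from the domain coverage, share, fold and -log10 q of libraries. In 4 groups, all from named bins, a library stood apart from the others. Chance alone gives about 1 in 20. In KO clones, KO clone 12 replicate 2 had 27.1% coverage of chr9:126525001-126550000, and the other 3 KO libraries 37.3% to 39.0%. The other 3 cases are the same library, dTAG clone 11 day 21 replicate 2, which has the lowest pileup of the day 21 clone libraries (1.61). It had 25.9% in the GPR179 bin (chr17:38325001-38350000), where the others had 32.6% to 33.7%, and 1.32% in the ZNF354C bin (chr5:179050001-179075000), where they had 6.90% to 7.09%. In the C11orf21 bin (chr11:2275001-2300000) it had 12.2% and the others 29.8% to 30.1%.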

How the results depend on the processing

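Counts of gained and lost domain bins, differences in mean domain coverage and differences in the domain share of called length are given below in the order KO, day 7, day 14 and day 21. The reported counts were 2 and 10, 96 and 2, 86 and 14, 138 and 8, the coverage differences -0.794, 3.87, 0.881, 2.64 points and the share differences -17.8, -20.1, -22.3, -22.5 points. Counting only peaks whose -log10 q reached 5, gained and lost counts were 0 and 0, 0 and 0, 0 and 0 and 0 and 0. The coverage differences were -4.92, -1.99, -4.07 and -2.69 and the share differences were -11.9, -13.3, -17.7 and -16.4 points. With peaks at a fold of at least 4, gained and lost counts were 0 and 0, 0 and 1, 0 and 2 and 0 and 4. The coverage differences were 0.0616, -0.0363, -0.122 and -0.107 and the share differences were 0.217, -0.911, -1.15 and -1.16 points. In lists of equal called length, gained and lost counts were 1 and 173, 4 and 426, 9 and 677 and 8 and 653. The coverage differences were -5.22, -5.95, -7.63 and -7.44 and the share differences were -11.6, -14.1, -18.1 and -17.6 points. After scaling by called length, gained and lost counts were 0 and 1805, 0 and 2015, 1 and 2134 and 0 and 2128. The coverage differences were -19.4, -21.1, -23.6 and -23.7 points. With the pileup covariate, gained and lost counts were 3 and 366, 22 and 294, 36 and 812 and 30 and 778. With peaks joined over gaps of up to 3 kb, gained and lost counts were 1 and 0, 64 and 0, 58 and 1 and 117 and 1. The coverage differences were 2.65, 10.2, 5.01 and 7.61 and the share differences were -20.1, -23.3, -25.5 and -25.9 points. With no filter on low bins, gained and lost counts were 2 and 9, 65 and 1, 65 and 10 and 107 and 3. Fitting the compared groups alone, gained and lost counts were 1 and 3, 200 and 3, 64 and 14 and 95 and 6. For bins at 10% or more, gained and lost counts were 160 and 42, 930 and 13, 857 and 58 and 1210 and 51. The coverage differences were 0.667, 4.85, 2.96 and 4.39 and the share differences were -29.1, -27.8, -31.3 and -31.3 points. For bins at 30% or more, gained and lost counts were 0 and 4, 9 and 1, 6 and 3 and 14 and 1. The share differences were -7.69, -9.69, -10.7 and -10.8 points. Without 1 library at a time, gained counts ran from 0 to 4 (KO), 19 to 188 (day 7), 15 to 132 (day 14), 31 to 217 (day 21). The lost counts ran from 0 to 10 (KO), 0 to 3 (day 7), 1 to 38 (day 14), 0 to 24 (day 21). The coverage differences ran from -6.49 to 4.9 (KO), 0.256 to 7.49 (day 7), -2.73 to 4.5 (day 14), -0.977 to 6.25 (day 21). The share differences ran from -18.3 to -17.3 (KO), -20.9 to -19.2 (day 7), -23.1 to -21.5 (day 14), -23.3 to -21.6 (day 21). The coverage difference changed sign in KO without KO parental replicate 1 (4.9), KO without KO clone 3 replicate 2 (0.569), KO without KO clone 12 replicate 2 (0.438), day 14 without clone 8 day 0 replicate 2 (-2.73), day 14 without clone 8 day 14 replicate 1 (-1.89), day 21 without clone 8 day 0 replicate 2 (-0.977), day 21 without clone 11 day 21 replicate 1 (-0.156). Of 343 values of 24 named bins under alternatives, 203 were called as reported, 137 lost the call and 3 reversed: LRP1 in KO when -log10 q had to reach 5 (-3.52 points), the bin at chr9:126525001-126550000 at day 21 in lists of equal length (-4.75) and CHAT with SLC18A3 at a fold of at least 4 (1.44). The cause was not tested. The alternatives for the share were chosen after seeing the data.

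The labels number the replicates 1 and 2 without saying that a number pairs libraries. Deviations of libraries with the same number correlated across bins at 0.134 to 0.198 in the KO experiment and 0.0787 to 0.368 at days 0 and 21. Replicate 1 had the higher domain coverage in 14 of 15 groups. With 2 numbers, whether they pair libraries was not settled. With a replicate block the gained and lost counts were 18 and 54, 328 and 10, 188 and 68, 309 and 39.

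With 2 libraries per group, an unlisted depth and standard errors of several points in domain bins, small changes of single domain bins cannot be seen.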
